A study of Mus musculus with 6 samples.

Results

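The genes described here encode the proximal signaling machinery of the T cell receptor, the proteins that act directly behind the receptor at the membrane. The 9 genes were chosen by name, with earlier results of these data known, namely Lck, Fyn, Zap70, Lat, Lcp2, Prkcq, Csk, Ptprc and Ptpn6. On the arrays, 8 of the 9 were among the 8511 genes named by a probe set, and they were represented by 23 probe sets, 7 on the Mu11K A array, 2 on the Mu11K B array and 14 on the U74A version 2 array. No probe set was annotated to Lck, which is therefore not analysed here. Lat was read by 1 probe set of the U74A array alone, so 7 genes could be compared over both experiments.

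RNA came from CD4+CD8+ double-positive thymocytes of female C57BL/6 mice aged 6 weeks, sorted by flow cytometry, and was hybridised to Affymetrix arrays. The transgenic group carried a Sox13 transgene and the control group consisted of wild-type littermates. The Mu11K set of experiment 1 is split over an A and a B array with separate probe sets, whereas a single U74A array served experiment 2. Every array type was hybridised once with transgenic and once with wild-type RNA, which makes 6 arrays. Because cells of 2 or more mice were combined before sorting, animal-to-animal variation is not measured here. The labels name no promoter for the transgene.

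In T cells the Src-family kinases LCK and FYN phosphorylate the CD3 and zeta chains of the receptor, to which the kinase ZAP70 then binds. ZAP70 phosphorylates the adaptors LAT and SLP-76, the latter encoded by Lcp2, and these assemble the complex that activates phospholipase C-gamma and Ras. Protein kinase C-theta, encoded by Prkcq, carries the signal to NF-kB. CSK and the phosphatases CD45, encoded by Ptprc, and SHP-1, encoded by Ptpn6, set how active the Src-family kinases are. In double-positive thymocytes this machinery reads the contact of the receptor with self-peptide during positive and negative selection.

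SOX13 is an HMG-box transcription factor, of a family that recognises short sites built around the letters ACAAT. The RefSeq promoter table of GRCm38.p6 held 14 windows for the 9 genes, each from 250 bases before to 50 bases after a transcript start, with several starts for 4 of the genes. ACAAT was searched on both strands and was found in 3 of the 14 windows, against 31% of all 32851 windows of the table. The longer form AACAAT was in 2 of the 14, against 10.7%, and it overlaps the shorter one. The 3 windows belong to Zap70 and Ptprc, a pair whose ratios in experiment 1 had opposite signs, and they are shown for that reason. In experiment 2 the ratios of the pair had the same sign (-0.19 and -0.08). Their 250 bases before the start are printed 5′ to 3′ on the strand of the gene, with the match in capitals, as ACAAT or as ATTGT where it lies on the other strand.
Zap70, first start, chr1:36761548-36761797, plus strand: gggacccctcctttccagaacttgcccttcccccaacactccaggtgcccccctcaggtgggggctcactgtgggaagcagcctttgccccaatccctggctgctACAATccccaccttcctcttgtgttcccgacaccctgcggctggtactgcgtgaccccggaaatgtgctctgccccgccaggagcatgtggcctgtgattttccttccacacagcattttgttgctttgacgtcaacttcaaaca
Zap70, second start, chr1:36764265-36764514, plus strand: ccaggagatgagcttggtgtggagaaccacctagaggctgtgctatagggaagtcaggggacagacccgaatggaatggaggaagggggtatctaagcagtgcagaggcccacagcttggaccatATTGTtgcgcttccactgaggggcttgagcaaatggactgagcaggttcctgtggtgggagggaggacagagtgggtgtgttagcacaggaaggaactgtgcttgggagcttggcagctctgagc
Ptprc, first start, chr1:138175306-138175555, minus strand: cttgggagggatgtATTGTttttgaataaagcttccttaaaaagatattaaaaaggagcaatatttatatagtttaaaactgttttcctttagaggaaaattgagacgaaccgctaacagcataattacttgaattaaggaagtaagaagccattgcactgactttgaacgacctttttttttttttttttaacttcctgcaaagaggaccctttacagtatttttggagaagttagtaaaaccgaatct
The matches begin 145 and 125 bases before the start in Zap70 and 236 bases before it in Ptprc. The third Zap70 window, the second Ptprc window and the windows of the other 7 genes held no ACAAT. A match describes these letters in this window, and binding was not measured.

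Intensities are given after scaling each array to a 2% trimmed mean of 500. For the log2 ratios, those below a floor of 100 were set to 100. Summed intensities of markers were taken without the floor and left out negative values. The log2 ratio is transgenic over wild type throughout. The share of probe sets above the floor was 46.9% to 57.4% per array. Sox13 itself had an intensity of 5951 in the transgenic sample of experiment 1, where the wild-type value did not reach the floor, and of 3832 against 599.6 in experiment 2. Markers of double-positive thymocytes, such as Cd4, Cd8a and Rag1, were above the floor on at least 1 array of the pair for all 5, 3 and 9 measured genes of Mu11K A, Mu11K B and U74A. Their summed intensity ranged from 15230 to 103913 on the transgenic arrays and from 18214 to 108976 on the wild-type arrays. Single markers differed more than the sums, such as Rag2 with 459.8 against 1871 in experiment 1 and 2119 against 2008 in experiment 2, and Ptcra with 953 against 312 and 2247 against 1503. Cd1d1 had 308 against 669 and 1315 against 1360. On both Mu11K types, the deposited wild-type values were whole numbers for 100% of probe sets, whereas 10.3% and 10.6% of the transgenic values were. On U74A the shares were 9.70% and 9.65%. In experiment 1 the form in which values were written therefore cannot be told apart from genotype, and its part in the results was not tested.

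**Figure D1:**
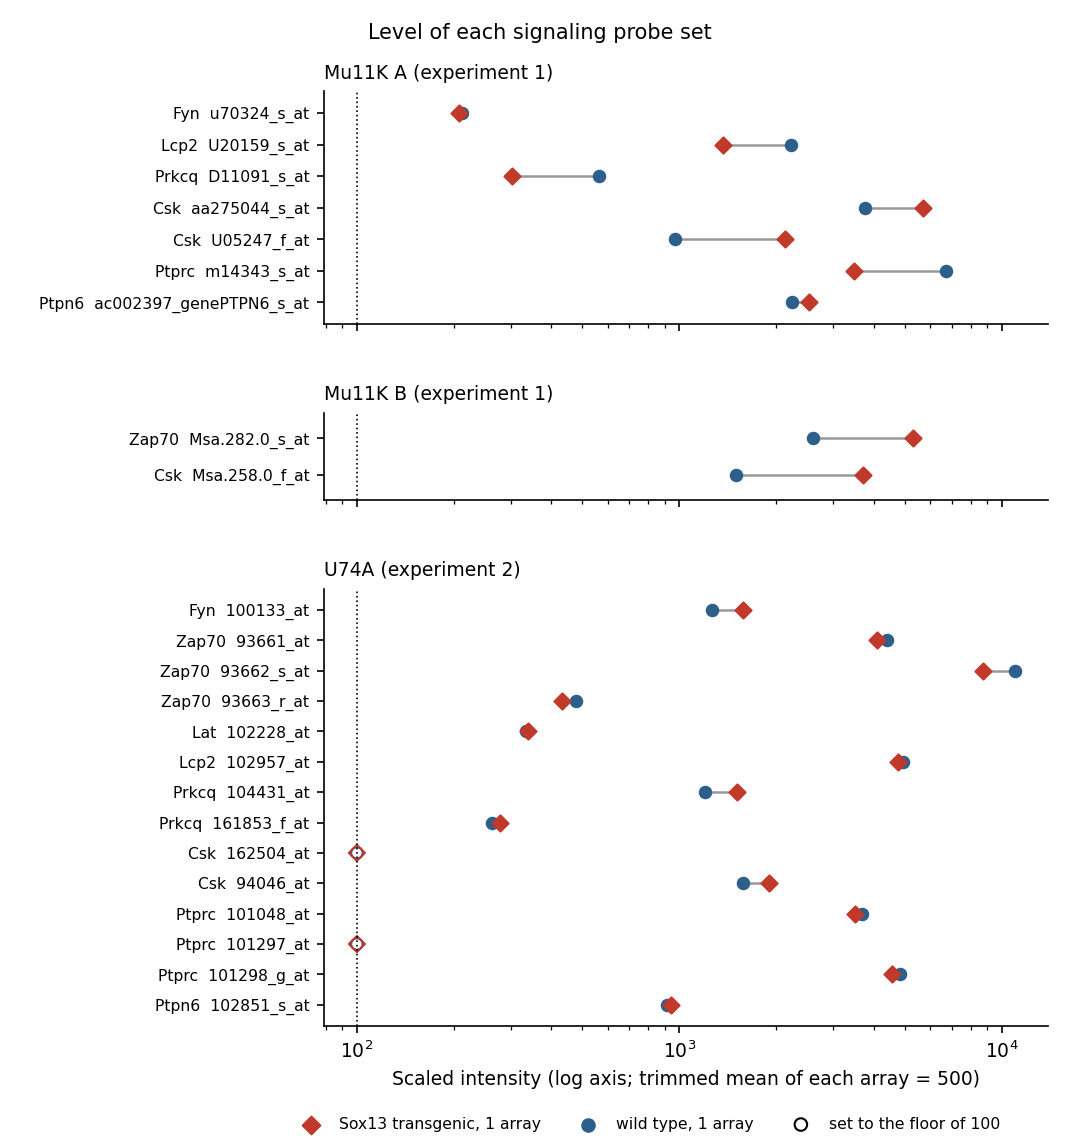
Scaled intensity (horizontal log axis) of each of the 23 probe sets of the signaling genes, with 1 transgenic array (diamond) and 1 wild-type array (circle) per array type; open symbols were set to the floor of 100, drawn as a dotted line. The pairs stand apart in experiment 1 for Csk, Zap70, Prkcq, Lcp2 and Ptprc, and lie close together in experiment 2, where no pair differs by more than 1.26-fold.

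Across the whole set, the transgenic samples of experiment 1 had higher levels of Csk and Zap70 and lower levels of Ptprc, Prkcq and Lcp2 than the wild type, by 1.63-fold to 2.05-fold per gene. In experiment 2 the same 5 genes differed by 1.03-fold to 1.21-fold. Of the 7 genes tested over both experiments, 0 passed the limma test at an adjusted p of 0.05, where 0.154% of all 3237 genes did, and 0 had an unadjusted p under 0.05, where 6.43% of all genes did. An unpaired fit called 0 of the 7, and 0 of all 3237 genes. The lowest adjusted p of the 7 genes was 0.796 (limma).

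Zap70, the kinase recruited to the phosphorylated receptor, was read by 1 probe set in experiment 1. Its intensity was 5309 in the transgenic and 2589 in the wild-type sample, a log2 ratio of 1.04 or 2.05-fold. In experiment 2 its 3 probe sets gave 4087 against 4407, 8731 against 10957 and 432 against 478, transgenic first. All 3 were lower in the transgenic sample, with log2 ratios of -0.11, -0.33 and -0.15, so the sign of experiment 2 was opposite to that of experiment 1. The mean over the experiments was 0.42 ± 0.38 (limma SE, n = 2 experiments; adjusted p = 0.882), with a 95% interval from -0.40 to 1.24. The experiment 1 ratio stayed above 2-fold with median scaling (1.22) but not after quantile (0.96) or loess normalization (0.92).

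Fyn, the second Src-family kinase of the receptor, had an intensity of 207 in the transgenic and 211 in the wild-type sample of experiment 1. Both values lay close above the floor. In experiment 2 they were 1575 and 1258, or 1.25-fold higher in the transgenic sample, and the log2 ratios of the experiments were -0.03 and 0.32. The sign of experiment 1 turned under median, quantile and loess scaling, where the ratio was 0.15, 0.27 and 0.22. The mean was 0.15 ± 0.34 (limma SE; adjusted p = 0.966).

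Csk, the kinase that phosphorylates the inhibitory tail tyrosine of LCK and FYN, had the highest mean ratio of the 7 genes. Its 3 probe sets of experiment 1 were all higher in the transgenic sample. The brightest gave 5696 against 3768, a log2 ratio of 0.60. The other two, which were designed to the same GenBank entry, gave 2125 against 969 on Mu11K A and 3722 against 1503 on Mu11K B, with log2 ratios of 1.13 and 1.31. Their names carry the suffix f, which Affymetrix used for probe sets that may also match related sequences. In experiment 2, 1 Csk probe set gave 1900 against 1570, a log2 ratio of 0.27, and the other, at 32.6 and 10.3, lay below the floor on both arrays. The mean was 0.64 ± 0.35 (limma SE; adjusted p = 0.796), with an interval from -0.12 to 1.41. With the brightest probe set alone it was 0.44 (adjusted p = 0.879, limma).

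Ptprc encodes CD45, the phosphatase that removes the inhibitory phosphate from the Src-family kinases and thus opposes CSK. In experiment 1 its intensity was 3468 in the transgenic and 6720 in the wild-type sample, 1.94-fold lower with a log2 ratio of -0.95. The ratio reached -1.12 after both quantile and loess normalization. In experiment 2, 2 probe sets gave 3492 against 3681 and 4573 against 4826, with log2 ratios of -0.08 in both. The remaining probe set, at 1.61 and 1.41, was below the floor on both arrays. Ptprc was thus lower in the transgenic sample of each experiment, by very different amounts, and the mean was -0.52 ± 0.36 (limma SE; adjusted p = 0.863), with an interval from -1.29 to 0.26.

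Ptpn6, which encodes the inhibitory phosphatase SHP-1, differed little in either experiment. Its intensities were 2525 against 2240 in experiment 1 and 942 against 916 in experiment 2. The log2 ratios were 0.17 and 0.04 and the mean was 0.11 ± 0.34 (limma SE; adjusted p = 0.975). The interval from -0.62 to 0.84 leaves room for a change of up to 1.79-fold upward.

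Of the 2 adaptor genes, only Lcp2 was read in both experiments. Lcp2, which encodes SLP-76, had 1366 in the transgenic and 2222 in the wild-type sample of experiment 1, or 1.63-fold lower, and 4771 against 4920 in experiment 2. Its log2 ratios were -0.70 and -0.04, both below 0, with a mean of -0.37 ± 0.35 (limma SE; adjusted p = 0.884). Lat, the membrane adaptor phosphorylated by ZAP70, was measured in experiment 2 alone, at 340 against 334. With a log2 ratio of 0.03 and 1 pair of arrays, it has no replicate check.

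Prkcq encodes protein kinase C-theta, which links the receptor to NF-kB. In experiment 1 it had 302 in the transgenic and 563 in the wild-type sample, 1.86-fold lower with a log2 ratio of -0.90. In experiment 2 the brighter probe set gave 1507 against 1199 and the other 278 against 262, with log2 ratios of 0.33 and 0.09. The sign therefore differed between the experiments, and the mean was -0.35 ± 0.37 (limma SE; adjusted p = 0.892).

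**Figure D2:**
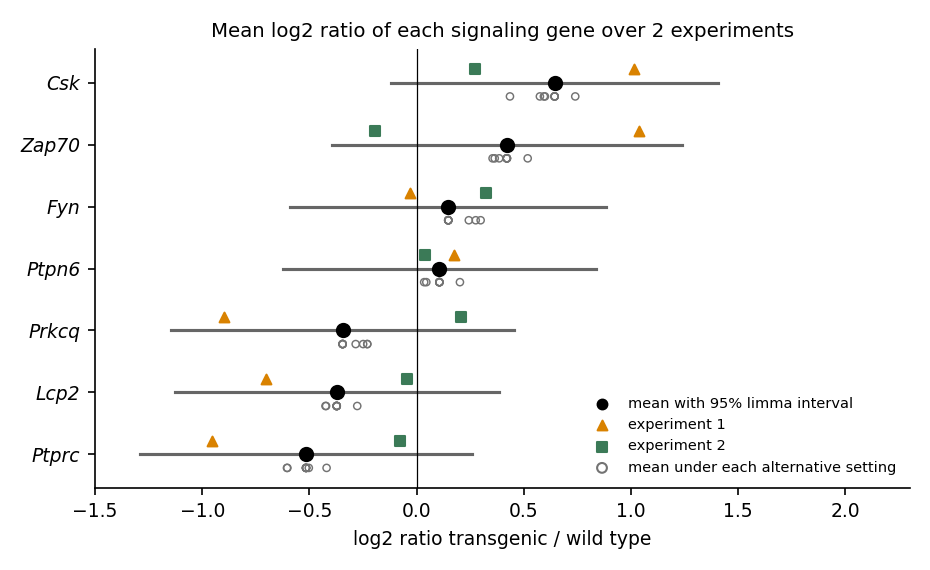
Mean log2 ratio of transgenic over wild type (horizontal axis) of the 7 signaling genes tested, with the 95% limma interval as a line; triangles are experiment 1, squares experiment 2, and open circles the mean under each alternative setting. Every interval includes 0, and Csk has the highest mean (0.64) and Ptprc the lowest (-0.52).

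Counted by probe set, 3 of the 9 signaling probe sets of experiment 1 differed by 2-fold or more, where 18.1% of all Mu11K probe sets above the floor did. They were the Zap70 probe set and 2 of Csk designed to the same GenBank entry, all higher in the transgenic sample, where 5.32% of all were higher by that much. Under quantile and loess normalization the number was again 3, with Ptprc in place of Zap70. In experiment 2, 0 of the 12 probe sets above the floor did so, against 1.53% of all. The median absolute log2 ratio of the 7 genes was 0.90 in experiment 1, against 0.44 over all genes tested, and 0.19 in experiment 2, against 0.17. Since the genes were chosen with earlier results of these data known, these comparisons only describe them.

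The log2 ratio had the same sign in both experiments for 4 of the 7 genes, namely Csk, Ptpn6, Ptprc and Lcp2, where 54.3% of all genes did. Csk and Ptpn6 were higher in both, against 23.9% of all genes, and Ptprc and Lcp2 lower in both, against 30.4%. Zap70, Prkcq and Fyn had opposite signs, as did 45.7% of all genes, although the sign of Fyn depended on the scaling. The absolute ratio was larger in experiment 1 for 6 of the 7 genes, all but Fyn, where 75.3% of all genes showed that order. Since every probe set was read on 1 transgenic and 1 wild-type array, and the A and B arrays of experiment 1 carry different probe sets, a difference between the experiments could not be tested.

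**Figure D3:**
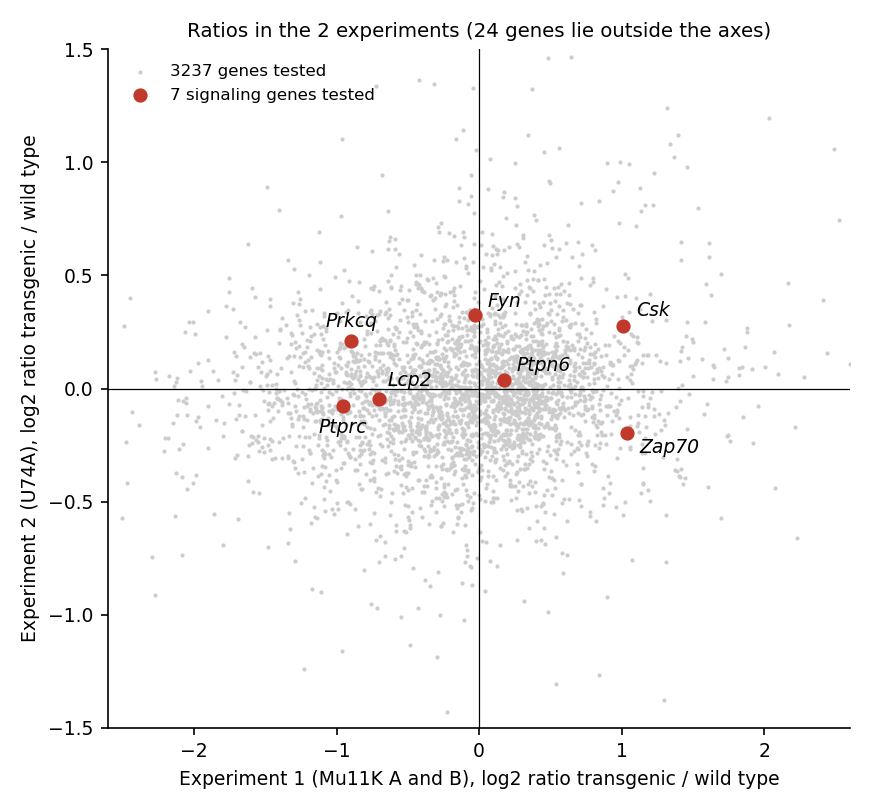
Log2 ratio of transgenic over wild type in experiment 1 (horizontal axis) and experiment 2 (vertical axis) for the 3237 genes tested (grey) and the 7 signaling genes (red); 24 genes lie outside the axes. The signaling genes spread from -0.95 to 1.04 along the horizontal axis and from -0.19 to 0.32 along the vertical one.

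The ratios of experiment 1 also varied with the genomic span of the gene, taken from RefSeq on GRCm38.p6. Across the 3233 genes with a span, which share the same arrays, span and log2 ratio had a Spearman's rho of -0.326 for experiment 1 and of -0.0753 for experiment 2. The median ratio of experiment 1 was 0.23 in the shortest of 5 equal groups of genes by span and -0.39 in the longest. Ptprc (113 kb) and Prkcq (129 kb) belonged to the longest group, where their ratios lay at the percentiles 24.1 and 26.7. Fyn, the longest at 196 kb, was at the percentile 70.9. Lcp2 (45.4 kb) was at 29.4 in the next group. Zap70 (21.0 kb) and Csk (27.0 kb) lay at 94.7 and 94.9 within their groups, and Ptpn6 (18.0 kb) at 60.7. Thus Ptprc, Prkcq and Lcp2, lower in experiment 1, lay in the longest group or the next. So did Fyn with a ratio of -0.03 and Csk with 1.01. The part of span in these ratios was not tested.

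**Figure D4:**
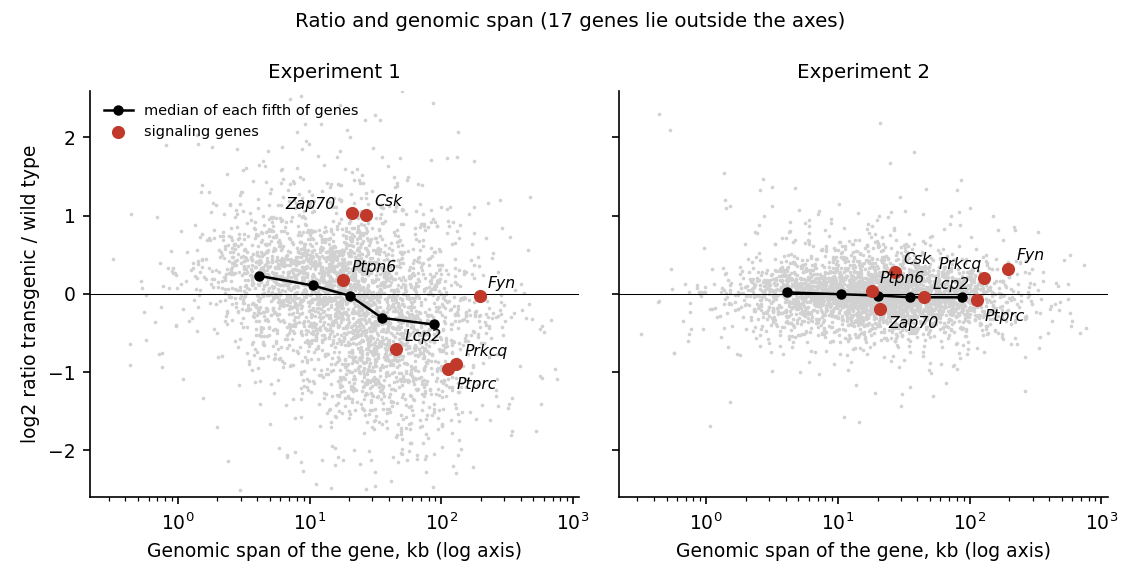
Log2 ratio of transgenic over wild type (vertical axis) against genomic span in kb (horizontal log axis) in each experiment; grey points are genes tested, black points joined by a line the medians of the 5 equal groups by span, and red points the signaling genes. In experiment 1 the medians run from 0.23 to -0.39, and in experiment 2 they stay between 0.02 and -0.04. In experiment 1, Ptprc, Prkcq and Lcp2 lie below the median of their group and Zap70, Csk, Fyn and Ptpn6 above it.

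Of 136 other genes of the pathway, listed by role with earlier results known, 64 were tested and 0 passed the limma test, where 0.154% of all genes did. At an unadjusted p under 0.05 there were 6, or 1 higher (Blk) and 5 lower (Pik3r1, Prkcb, Sla, Nfatc3 and Cd28), against 2.5% and 3.92% of all genes, and the unpaired fit called 0 genes over all. Blk exceeded the floor in experiment 2 only in the transgenic sample, and Pik3r1 in experiment 1 only in the wild type. The filter therefore fixed the signs of these ratios. The median log2 ratios of the 64 genes were -0.08 and -0.07 in experiments 1 and 2, against -0.05 and -0.02 over all genes tested.

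The list of kinases held 18 genes, and 10 of them were tested. In both experiments, 2 had a ratio above 0 and 4 below it, where 23.9% and 30.4% of all genes did. Syk, the relative of ZAP70 used by B cells and early thymocytes, had 772 against 291 in experiment 1 and 815 against 749 in experiment 2, with log2 ratios of 1.41 and 0.12 (adjusted p = 0.796, limma). Pik3r1, the regulatory subunit of phosphoinositide 3-kinase, was below the floor in the transgenic sample of experiment 1 and 276 in the wild type. Its log2 ratios were -1.47 or lower and -0.22 (adjusted p = 0.769, limma). The Tec kinase gene Tec had 0.94 and 0.10. Matk, a CSK relative, had -0.09 and -0.31, and the protein kinase C gene Prkcd -0.12 and -0.20. The experiment 1 ratios of Matk and Prkcd changed sign over the alternative settings, up to 0.33 and 0.06. Prkcb, another protein kinase C gene named after its values were seen, had -1.75 and -0.07. Zap70 and Syk thus shared a ratio above 2-fold in experiment 1, with -0.19 and 0.12 in experiment 2.

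Of 29 adaptors and ubiquitin ligases, 8 were tested, 1 higher and 5 lower in both experiments, against 23.9% and 30.4% of all genes. Sla, an adaptor that limits receptor levels in double-positive thymocytes, had 1596 against 4829 in experiment 1 and 6129 against 7083 in experiment 2. Its log2 ratios were -1.60 and -0.21 (adjusted p = 0.769, limma). The ubiquitin ligase gene Cbl had -1.12 and -0.14, and Pag1, an adaptor that holds CSK at the membrane, -0.65 or lower and -0.22. Cd2bp2, whose product binds the tail of CD2, was the gene higher in both, with 0.29 and 0.09.

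Of 19 phosphatases, 11 were tested, 4 higher and 4 lower in both, against 23.9% and 30.4% of all genes. Dusp6, which dephosphorylates ERK, had ratios of like size in the experiments, with 508 against 714 in experiment 1 and 351 against 525 in experiment 2. Its log2 ratios were -0.49 and -0.58 (mean -0.54 ± 0.34, limma SE; adjusted p = 0.831). Ptprcap, whose product associates with CD45, had 0.28 and 0.05, while Ptprc itself had -0.95 and -0.08. The MAP kinase phosphatase gene Dusp2 had 0.74 and 0.07, and Ptpn18 had 0.71 and 0.06. Ptpn2, a phosphatase that limits T cell signaling, had -0.10 and -0.36. Its experiment 1 ratio changed sign over the alternative settings, up to 0.15. Ptpn22, a phosphatase that acts on LCK and ZAP70, had -1.09 and -0.29 (adjusted p = 0.796, limma).

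Of 45 genes of the calcium, Ras and NF-kB branches, 22 were tested. In both experiments 3 were higher and 8 lower, against 23.9% and 30.4% of all genes. The inositol trisphosphate receptor gene Itpr2 had ratios of -0.92 and -0.50, and the calcineurin gene Ppp3cb of -0.84 and -0.42. The experiment 2 ratio of Itpr2 averages 2 probe sets with the suffixes i and f, at 6907 against 8905 and 1188 against 1843. Its other probe sets on U74A, at 44.7 against 33.4 and 15.5 against 11.7, were below the floor. The 2 Ppp3cb probe sets above the floor in experiment 1 differed, at -1.51 and -0.18. Nfatc3, a calcineurin target named after its values were seen, had 3 probe sets from -1.91 to -1.45 in experiment 1 and 1 of -0.12 in experiment 2. Ppp3ca, which encodes the other main catalytic calcineurin subunit, was below the floor in the transgenic sample of experiment 1 and 122 in the wild type, and had ratios of -0.29 or lower and -0.28. Map2k1, the ERK kinase gene, had 0.67 and 0.29. Bcl10, which acts behind protein kinase C-theta, had 0.50 and 0.10, and the actin regulator gene Was had 0.58 and 0.05.

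Of 11 receptor chains and coreceptors, 10 were tested, 2 higher and 3 lower in both, against 23.9% and 30.4% of all genes. The CD3 chain genes Cd3d, Cd3e and Cd3g, the latter pair named after their values were seen, had ratios of 0.07, 0.42 and -0.37 in experiment 1 and of 0.09, -0.05 and 0.20 in experiment 2. The coreceptor genes Cd4 and Cd8a, whose products bring LCK to the receptor, had -0.00 and -0.11 in experiment 1 and -0.37 and -0.18 in experiment 2. Over the alternative settings the experiment 1 ratios of Cd3d, Cd4 and Cd8a changed sign, reaching -0.08, 0.18 and 0.07. Cd6 had 0.34 and 0.08. The costimulatory receptor gene Cd28 had -2.86 and -0.43 (adjusted p = 0.521, limma), and passed under median scaling (adjusted p = 0.0176, limma), with a range over the alternatives up to 0.999. Under median scaling the limma fit used 1 variance for all genes, which took no account of the spread of Cd28 between the experiments.

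Signaling genes typical of B and myeloid cells were listed as a contrast to the T cell set. Of 15, 4 were tested, and 3 were higher in both experiments, namely Blk, Lat2 and Fgr, where 23.9% of all genes were. Vav2, also tested, had log2 ratios of -0.26 or lower and 0.01. The Src-family kinase gene Blk, also found in gamma-delta T cells, had log2 ratios of 1.37 and 1.02 (adjusted p = 0.501, limma). In experiment 1 it had 712 against 254 by 1 probe set, with a log2 ratio of 1.49. By the other it had 236 against a wild-type value below the floor, so that 1.37 averages a measured ratio and a lower bound. In experiment 2 the wild type was below the floor for both probe sets, and 1.02 is a lower bound. Blk thus entered experiment 2 through the transgenic array alone, which fixed its sign there. The LAT-related adaptor gene Lat2 had 189 against 131 and 150 against 110, and the Src-family kinase gene Fgr had 791 against 610 and 220 against 163.

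Markers of other cells were read beside these genes, and their summed intensities differed between the genotypes to unequal extents. Over the measured B cell markers, 4 of 10 on Mu11K A, 5 on Mu11K B and 9 on U74A, the sums were 4750, 12215 and 4269 in the transgenic and 2398, 5403 and 2827 in the wild-type samples. Most of that difference lay in the class II genes and Cd74, which other antigen-presenting cells also express, as with 2135 against 681 for H2-Aa on Mu11K A and 4243 against 1808 for Cd74 on Mu11K B. One H2-Eb1 probe set of Mu11K B was lower in the transgenic sample, with 786 against 932. Markers more restricted to B cells had no common direction. Ms4a1 had 699 against 770 by 1 probe set on Mu11K A and 201 against a value below the floor on U74A. Cd79b had 523 against 350 on Mu11K A and 661 against 775 on U74A. Cd22 was below the floor in both genotypes on Mu11K A and U74A, and Cd79a on Mu11K B, while Cd79a on U74A had 177 against 101.

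The myeloid markers, 7, 5 and 12 of 12, summed to 2679, 1111 and 2137 against 2677, 1169 and 1422, so that the sums differed on U74A and hardly on the Mu11K arrays. Single markers differed there, since Lyz2, with 1627 against 2024, made up most of the Mu11K A sum and Ctss had 404 against 162. Ctss (log2 ratios of 1.32 and 1.24) and Mpeg1 (0.51 and 0.66) were higher in both experiments. Cd14 was lower in both, and Lyz2, Cd68 and S100a8 had opposite signs. In experiment 2 the wild-type values of Lyz2 and S100a8 were below the floor. Below the floor in both genotypes were 3, 2 and 4 of the myeloid markers, among which was Adgre1 on Mu11K B and U74A. The NK and gamma-delta markers, 6, 2 and 9 of 13 without Sox13, summed to 1763, 8945 and 2635 against 602, 1968 and 1234. On Mu11K B, Gzma made up most of the sum, with 8604 against 1535, while Id2 had 341 against 433. On Mu11K A, Trgv1 had 591 against 197 by its brighter probe set and Blk, also listed in the B and myeloid contrast, 712 against 254. On U74A, Gzma had 1262 against 605, while Id2 and Il2rb were lower. Trgv1 had 492 there and Blk 360 by its brighter probe set, both against wild-type values below the floor. Gzmb, Id2, Il2rb and Klrb1c were below the floor in both genotypes on Mu11K A, and Gzmb, Klrd1, Klrk1 and Ncr1 on U74A. The erythroid markers, 2, 4 and 6 of 8, summed to 54.7, 3063 and 2257 against 198, 689 and 796. The globin genes Hba-a1 (adjusted p = 0.0154, limma) and Hbb-b2 (adjusted p = 0.0399, limma) were 2 of the 5 genes called over all. On Mu11K B, the Hba-a1 probe set with the suffix f had 1862 against 131, while the other had 299 against 305. Hbb-b2 on U74A had 291 against a wild-type value below the floor. Car2 was lower in both experiments. Alas2 was below the floor in both genotypes on Mu11K B and U74A, and so was Epor on Mu11K A and U74A. The stroma and epithelium markers, 6, 5 and 9 of 9, had lower sums in the transgenic samples, with 208, 95.8 and 1197 against 468, 117 and 1703. Of these markers, 4, 4 and 6 were below the floor in both genotypes, Krt8 and Col3a1 on every array. The Mu11K B sums came from Col1a1 alone. On Mu11K A, Pecam1 had 92.9 against 215. On U74A, a Col1a2 probe set had 751 against 1113, while the other had 12.5 against 13.9 and a Col1a1 probe set 191 against 193. The part of other cells in the ratios of Ptprc, Ptpn6, Syk, Blk, Lat2 and Fgr, which other leukocytes express too, was not tested. In sorted bulk samples, fewer cells of a type and less RNA per cell cannot be told apart.

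**Figure D5:**
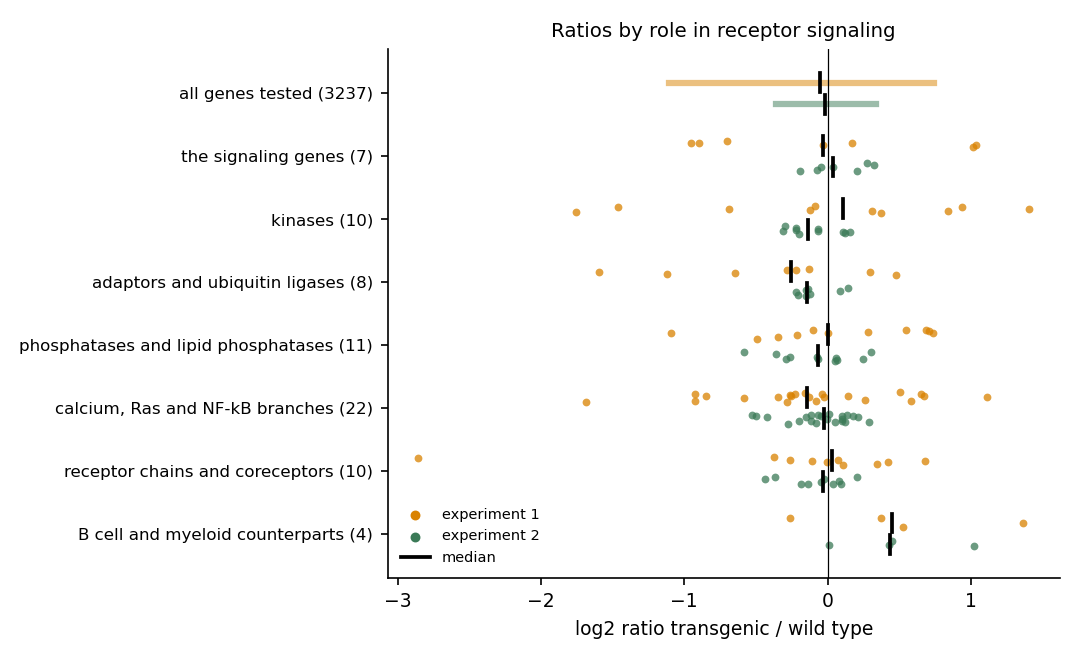
Log2 ratio of transgenic over wild type (horizontal axis) of the genes tested in each role, with experiment 1 in orange, experiment 2 in green and medians as black bars; for all 3237 genes the coloured bars span the percentiles from 10 to 90. Points of experiment 2 lie within 0.58 of 0 in every role but the last, where Blk reaches 1.02.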

How the data were processed

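The values deposited by the authors are probe set intensities on a linear scale. Microarray Analysis Software versions 4 and 5 are named per the labels' series text and MAS5 per the submitters' processing notes for the U74A arrays, without a scaling target. Control probe sets, 55 per Mu11K array and 66 on U74A, and 21 Mu11K A probe sets without a wild-type value were left out. Genes were named from probe sets with 1 symbol (with 1 symbol, several or none, Mu11K A held 5530, 197 and 781 probe sets, Mu11K B 2001, 27 and 4512, and U74A 10833, 396 and 1193). Arrays were scaled to a 2% trimmed mean of 500 with a floor of 100, and log2 ratios were averaged per gene and experiment over probe sets that exceeded the floor in either genotype. The fit was limma 3.58.1 in R 4.3.3 on the 2 log2 ratios of each of 3237 genes, a two-sided test of their mean against 0 with Benjamini-Hochberg adjustment over all genes. Pairing follows the series text, which compares littermates within each experiment. In the main setting the shared variance had 12.1 prior degrees of freedom, which outweigh the spread between 2 pairs. Genes named were all members, and up to 3 per role and direction by the smaller of their 2 ratios. Members and lists were chosen with earlier results of these data known. The number of arrays limits the precision.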

Additional observations from a re-analysis of the deposited data

How the results depend on the processing

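Over 9 alternative settings with a test, 0 of the 7 signaling genes passed and all 7 means kept their sign, with the lowest adjusted p at 0.782 for Csk with a floor of 200 (limma). The number of genes tested changed with the setting, and 5 of 3237 were called in the main one. With other filters, the calls were 0 of 3804 when the floor was 50, 5 of 2638 when it was 200 and 0 of 5877 without a filter. Among probe sets above the floor on both arrays they were 2 of 2808. Median scaling gave 27 of 3228, quantile normalization 15 of 3231, loess normalization 7 of 3237 and the brightest probe set 1 of 3237. Without the replicate block, that is without pairing, 0 of 3237 were called. Median scaling moved the median log2 ratio of experiment 1 from -0.05 to 0.12, and the ratios of all genes with it. In that setting the limma SE was 0.397 for every signaling gene tested. Its calls therefore took no account of the spread between the 2 experiments of a gene. Leaving out an experiment gives the ratio of the other, with no test, from -0.029 to 0.32 for Fyn, -0.19 to 1.04 for Zap70 and -0.90 to 0.21 for Prkcq, whose signs turned, and from 0.27 to 1.01 for Csk, -0.95 to -0.08 for Ptprc, -0.70 to -0.04 for Lcp2 and 0.04 to 0.17 for Ptpn6. Csk, Ptprc and Lcp2 thus rest mostly on experiment 1. The cause was not tested. Values close to the floor, as for Fyn in experiment 1, are limited by signal over background.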
